A study of Mus musculus with 4 samples.

Results

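The genes described here encode receptors, bridging molecules and engulfment signals for the uptake of apoptotic cells (efferocytosis): Mertk, Axl, Gas6, Pros1, Mfge8, Timd4, Stab1, Lrp1, Elmo1 and Dock1. They were taken by symbol from the deposited count table, which held all 10 among its 16360 symbols. All 10 also passed the filter on low counts, with 13575 genes tested in all. The libraries came from recruited alveolar macrophages, which arise from blood monocytes and populate the injured lung. One group was R213G, male mice homozygous for the R213G form of extracellular superoxide dismutase (EC-SOD, encoded by Sod3), and the other was WT male mice. The strain of both is labelled CD57/Bl6 and their age 8 to 10 weeks. Mice of both genotypes had received the lung-injuring drug bleomycin intratracheally, 100 µl of a 1 U/ml solution. All libraries used here came from injured lungs, so every level below is that of cells 7 days after bleomycin. The sort gate took cells high for CD64, high for CD11b and low for Siglec-F, and directional poly(A) RNA libraries were sequenced, 2 per genotype. Whether a library came from 1 mouse or from pooled mice is not in the labels, and the p-values reflect library-to-library spread alone, which may be technical.

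Dying cells expose phosphatidylserine on their outer membrane. Macrophages bind it directly, through receptors such as Tim-4 (Timd4) and stabilin-1 (Stab1), or through soluble bridging proteins. Gas6 and protein S (Pros1) link it to the TAM receptor tyrosine kinases, a family named for Tyro3, Axl and Mertk, while Mfge8 links it to integrins. Elmo1 and Dock1 form a complex that activates the small GTPase Rac and so drives the membrane around the corpse. In the lung, alveolar macrophages clear dying epithelial cells and neutrophils in this way after injury.

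Depth was even, with total counts from 33488569 to 35176210 per library, and genes with at least 1 count ranged from 13584 to 15194. The lowest number of detected genes was that of R213G replicate 1, and the members lowest in this library are also given without it. Levels are CPM, counts per 1e6 counts of a library's TMM-scaled total over the tested genes. Each log2 fold change is R213G minus WT and is given ± SE. All 6 macrophage markers (Adgre1, Cd68, Fcgr1, Mrc1, Csf1r and Lyz2) were present in every library, with a summed level of 23773 to 28681 CPM in R213G and 26792 to 30413 CPM in WT. Sod3 had 4 and 47 counts in R213G replicates 1 and 2, against 47 and 96 counts in WT replicates 1 and 2. R213G changes the protein sequence, so the level of Sod3 does not check the genotype labels.

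The comparison asked whether R213G macrophages expressed the uptake machinery at other levels than WT macrophages. No member passed the test: 0 of 10 passed an adjusted p of 0.05, against a background of 0% of the 13575 genes tested (edgeR quasi-likelihood with Benjamini-Hochberg adjustment, adjusted p = 0.9996 for each member). At an unadjusted p under 0.05 there were 0 members, against 302 genes or 2.22% of all. DESeq2 and limma voom also called 0 members. The unadjusted p of the members ran from 0.114 for Timd4 to 0.632 for Axl. Of the 10 fold changes 6 were below 0, against 50.9% of all genes tested, and their median was -0.09, against -0.0056 over all genes. The R213G and WT values were fully separate for 1 of 10 members, Elmo1, against 28.9% of all genes in either direction. None of the members was separate with R213G higher, against 13.7% of all genes. For 9 of 10 members, all but Timd4, the 95% interval of the fold change lay within 1 of 0 on the log2 scale, against 59.9% of all genes tested. Differences inside the intervals were not excluded by these libraries, and the intervals are not a limit of detection. A 2-fold difference in either direction lay outside the interval of those 9 genes. For Gas6 this did not hold with 1 library left out: the interval ran from -1.24 to -0.41 without R213G replicate 2 and from -1.25 to 0.38 without WT replicate 2.

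**Figure D1:**
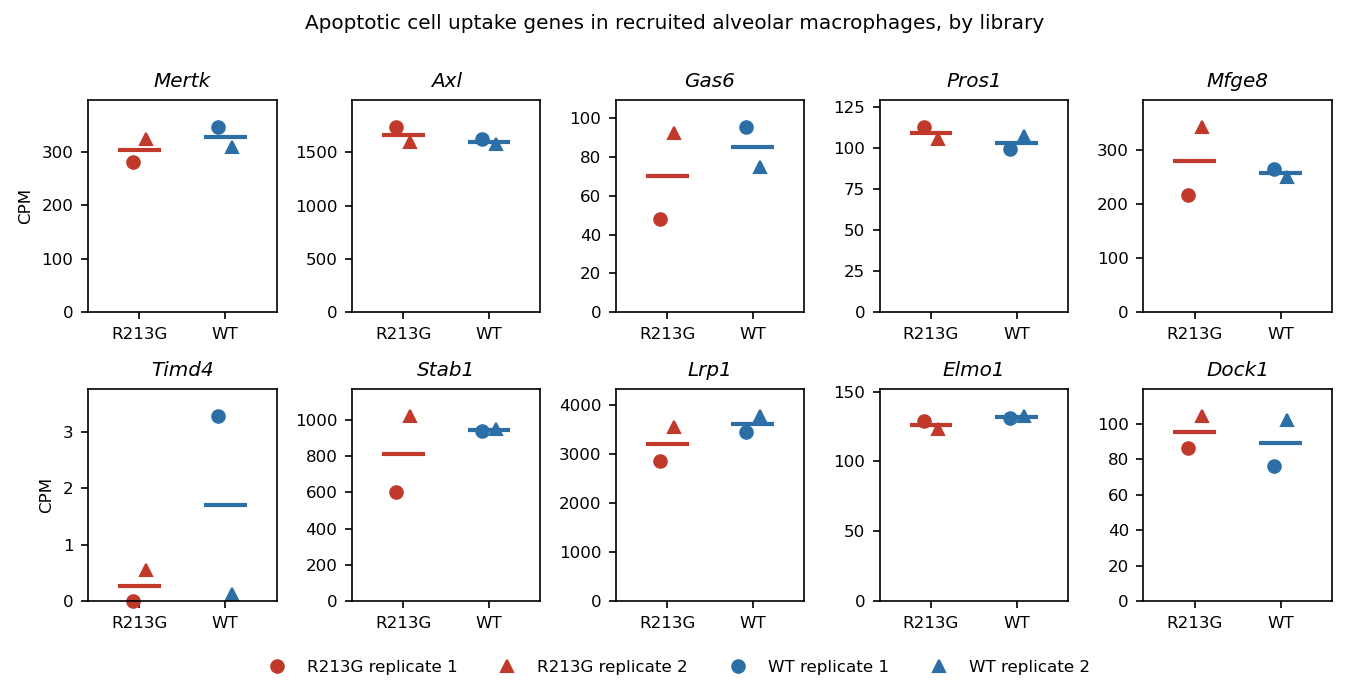
CPM of each of the 10 uptake genes (vertical axis, linear and starting at 0) in R213G libraries (left, red) and WT libraries (right, blue), with circles for replicate 1, triangles for replicate 2 and a bar at the mean of 2 libraries. The libraries of the genotypes overlap in every panel but that of Elmo1, and R213G replicate 1 is the lowest library for Gas6, Stab1, Mfge8, Mertk, Lrp1 and Timd4.

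In R213G replicate 1, 6 of the 10 members (Mertk, Gas6, Mfge8, Timd4, Stab1 and Lrp1) had their lowest value of the 4 libraries, against 36.5% of all genes tested. The summed level of the members was 6062 and 7252 CPM in R213G replicates 1 and 2, against 7020.5 and 7270.1 CPM in WT replicates 1 and 2. The macrophage marker sum was also lowest in R213G replicate 1, as was that of interstitial or tissue-resident macrophage markers (6 of 7 markers in the table, 3203 to 4030.0 CPM in R213G and 3714 to 3766 CPM in WT, led by C1qa). The part of these differences in the members' values was not tested. In bulk RNA, fewer cells of a type and less RNA per cell cannot be told apart.

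Both TAM receptors of the list were abundant. Axl, which binds Gas6 and is prominent in alveolar macrophages, lies on chromosome 7 from 25757273 to 25788705 (GRCm38, minus strand). It had 1733 and 1592 CPM in R213G replicates 1 and 2, against 1622 and 1579.9 CPM in WT replicates 1 and 2. The 4 values lay close together and the genotypes overlapped, with 1663 ± 99.3 CPM in R213G and 1601 ± 29.5 CPM in WT (SD, n = 2 each). The log2 fold change of 0.05 ± 0.11 had a 95% interval from -0.19 to 0.30, and it was -0.01 without R213G replicate 1.

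Mertk, the TAM receptor most tied to corpse uptake in macrophages and bound by both Gas6 and protein S, lies on chromosome 2 from 128698956 to 128802894 (plus strand). It had 282 and 324 CPM in R213G replicates 1 and 2, against 346 and 309 CPM in WT replicates 1 and 2. R213G replicate 1 was the lowest library, and the value of R213G replicate 2 lay between those of WT. This gave a log2 fold change of -0.11 ± 0.12 (95% interval -0.39 to 0.16). It was -0.02 without R213G replicate 1, -0.22 without R213G replicate 2 and -0.03 without WT replicate 1.

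The bases upstream of the start are printed for members with and without GC boxes, a motif of many promoters. Each sequence is the 250 bases before the annotated start (RefSeq, GRCm38.p6), 5′ to 3′ on the gene's strand. Capitals mark GC boxes, the letters GGGCGG or, on the other strand, CCGCCC, with overlapping matches counted each. The positions are chr7:25788734-25788983 for Axl (minus strand), chr2:128698665-128698914 for Mertk (plus), chr16:62854057-62854306 for Pros1 (plus), chr14:31168642-31168891 for Stab1 (minus) and chr11:46810549-46810798 for Timd4 (plus). Axl and Mertk are shown as the TAM receptors and Pros1 as the ligand with the most matches. Stab1 and Timd4 are windows without a match, the first of an abundant member and the second of one near 0 counts.
Axl: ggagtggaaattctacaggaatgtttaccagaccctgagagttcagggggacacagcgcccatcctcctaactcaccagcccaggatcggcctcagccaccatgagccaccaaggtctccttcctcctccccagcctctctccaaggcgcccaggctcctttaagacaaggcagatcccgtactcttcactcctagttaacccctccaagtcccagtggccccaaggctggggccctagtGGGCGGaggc
Mertk: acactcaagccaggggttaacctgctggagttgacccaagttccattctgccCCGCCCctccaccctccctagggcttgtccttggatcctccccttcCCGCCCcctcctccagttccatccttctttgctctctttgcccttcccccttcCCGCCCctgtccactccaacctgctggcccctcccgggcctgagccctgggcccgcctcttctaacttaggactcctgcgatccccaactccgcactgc
Pros1: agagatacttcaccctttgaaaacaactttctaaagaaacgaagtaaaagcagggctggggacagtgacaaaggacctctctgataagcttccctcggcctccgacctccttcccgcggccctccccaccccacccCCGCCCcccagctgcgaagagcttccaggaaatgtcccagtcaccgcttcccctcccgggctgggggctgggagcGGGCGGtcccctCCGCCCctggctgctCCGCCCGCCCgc
Stab1: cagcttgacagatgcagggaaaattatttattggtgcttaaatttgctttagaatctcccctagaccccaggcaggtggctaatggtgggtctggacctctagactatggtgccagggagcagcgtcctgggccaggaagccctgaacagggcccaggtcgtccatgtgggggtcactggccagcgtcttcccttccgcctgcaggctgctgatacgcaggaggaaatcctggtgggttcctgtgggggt
Timd4: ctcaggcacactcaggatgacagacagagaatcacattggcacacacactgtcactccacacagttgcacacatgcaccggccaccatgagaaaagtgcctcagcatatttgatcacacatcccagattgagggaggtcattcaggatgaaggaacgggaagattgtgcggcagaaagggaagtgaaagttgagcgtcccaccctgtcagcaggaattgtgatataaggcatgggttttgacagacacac
The GC box was found 1 time upstream of Axl, 3 times upstream of Mertk and 5 times upstream of Pros1, and the Stab1 and Timd4 windows had no match. The table held 11 starts for the 10 members, 2 of them for Elmo1, and 8 of the 11 windows held a GC box, against 32.7% of all 32851 windows of that length. The windows without a match were those of Timd4, Stab1 and the downstream start of Elmo1. The TATA box (TATAAA or, on the other strand, TTTATA) was in 1 of the 11, an Elmo1 start, against 12.4% of all. The GC content had a median of 61.6% in the members' windows and 52.4% in all windows, and a GC box is more frequent in GC-rich sequence. These are matches of letters and were not tested against the levels.

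RNA of the TAM ligands was present in the same bulk libraries at lower levels per kilobase than that of Axl and Mertk. Gas6, which binds all TAM receptors, lies on chromosome 8 from 13465374 to 13494490 (minus strand). It had 48.1 and 92.4 CPM in R213G replicates 1 and 2, against 95.2 and 74.7 CPM in WT replicates 1 and 2. The R213G libraries lay nearly a doubling apart, by 0.94 on the log2 scale, and R213G replicate 2 sat within the WT range. The log2 fold change of -0.27 ± 0.28 (95% interval -0.91 to 0.36) was 0.12 when R213G replicate 1 was left out and -0.82 when R213G replicate 2 was. The opposite-strand gene Tmem255b shares 34 exonic bases with Gas6, or 1.33% of the Gas6 exons, and was not analysed here. Pros1, which encodes the anticoagulant cofactor protein S, lies on chromosome 16 from 62854307 to 62929346 (plus strand). It had 113 and 106 CPM in R213G replicates 1 and 2, against 99.4 and 108 CPM in WT replicates 1 and 2. The genotypes overlapped within a narrow range (log2 fold change 0.08 ± 0.13, 95% interval -0.21 to 0.37).

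Set against each other per kilobase of exon, the ligands did not keep a fixed ratio. The level of Gas6 over that of Pros1 was 0.684 and 1.399 in R213G replicates 1 and 2, against 1.54 and 1.11 in WT replicates 1 and 2. By this length, R213G replicate 1 was the sole library in which Pros1 exceeded Gas6. Per kilobase of coding sequence, Pros1 (49.1 to 55.7 CPM per kilobase) lay above Gas6 (23.8 to 47.1) in all 4 libraries. The level of Mertk over that of Axl varied less, at 0.189 and 0.236 in R213G replicates 1 and 2, against 0.248 and 0.227 in WT replicates 1 and 2. The genotypes overlapped.

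Mfge8, the secreted bridge from phosphatidylserine to αv integrins, lies on chromosome 7 from 79133768 to 79149060 (minus strand). It had 218 and 342 CPM in R213G replicates 1 and 2, against 266 and 250.2 CPM in WT replicates 1 and 2. Both WT values lay between those of R213G. Its log2 fold change was 0.12 ± 0.19 (95% interval -0.30 to 0.54). It was 0.41 without R213G replicate 1 (unadjusted p = 0.00652, adjusted p = 0.9994, edgeR) and -0.25 without R213G replicate 2, so its direction rested on which R213G library was kept.

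Stab1, a scavenger receptor that binds phosphatidylserine and is typical of tissue-resident macrophages and sinusoidal endothelium, lies on chromosome 14 from 31139013 to 31168641 (minus strand). It had 599.6 and 1019 CPM in R213G replicates 1 and 2, against 939.8 and 949 CPM in WT replicates 1 and 2. The WT libraries lay 0.01 apart on the log2 scale and the R213G libraries 0.76 apart, on both sides of WT. The log2 fold change of -0.22 ± 0.21 (95% interval -0.71 to 0.26) was 0.11 when R213G replicate 1 was left out and -0.66 when R213G replicate 2 was. The opposite-strand gene Nt5dc2 shares 112 exonic bases with Stab1, or 1.09% of the Stab1 exons, and had 1239 to 2016 counts. The strand setting of the counting is not given in the sources used here. Endothelial markers (4 of 5 in the table, led by Vwf) summed to 99.6 to 143 CPM in R213G and 119 to 138 CPM in WT. That sum was lowest in R213G replicate 1 and highest in R213G replicate 2, as Stab1 was. Most of it was Vwf, at 90.5 to 136 CPM in R213G and 110 to 129 CPM in WT. Pecam1 of the same list had another order, highest in WT replicate 2 at 3.06 CPM. The sum of interstitial or tissue-resident macrophage markers had the same lowest and highest library as Stab1. Most of that sum was C1qa, at 2200 and 2903 CPM in R213G replicates 1 and 2, against 2642 and 2547 CPM in WT. The match was thus that of C1qa and was not shown for the other markers of the list. The part of these cells in the Stab1 values was not tested.

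Lrp1, a large endocytic receptor that binds calreticulin on dying cells, lies on chromosome 10 from 127538161 to 127621148 (minus strand). It had the highest CPM of the members, with 2854 and 3549 CPM in R213G replicates 1 and 2, against 3442 and 3765 CPM in WT replicates 1 and 2. R213G replicate 1 was the lowest library and R213G replicate 2 lay between the WT values. Lrp1 made up 47.1% and 48.9% of the members' summed CPM in R213G replicates 1 and 2, against 49.0% and 51.8% in WT replicates 1 and 2. Its log2 fold change was -0.17 ± 0.13 (95% interval -0.47 to 0.13), and -0.02 without R213G replicate 1.

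Timd4, which encodes the phosphatidylserine receptor Tim-4 of long-lived tissue-resident macrophages, lies on chromosome 11 from 46810800 to 46844332 (plus strand). It had 0 and 19 counts in R213G replicates 1 and 2, against 108 and 4 counts in WT replicates 1 and 2. A count of 0 allows up to 3 counts in that library, counting error only. WT replicate 1 alone held most of the counts, and the other WT library lay below R213G replicate 2. The log2 fold change of -2.58 ± 1.50 (95% interval -5.89 to 0.73, unadjusted p = 0.114) was 1.22 without WT replicate 1 and -1.60 without R213G replicate 1. Its p was under 0.05 without WT replicate 2 (unadjusted p = 0.0256, adjusted p = 0.9997, edgeR). Dendritic cell markers (6 of 6 in the table, led by Ccr7) were also highest in WT replicate 1, with a sum of 44.1 to 136 CPM in R213G and 39.5 to 153 CPM in WT. R213G replicate 1, with 0 counts of Timd4, had the next highest sum. Ccr7 had 44.2 CPM in that library and 80.0 CPM in WT replicate 1, and the order of these sums rested on this gene.

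Of the 9 members with counts in every library, Elmo1 varied least, its highest library being 1.07 times its lowest, followed by Axl at 1.10 times and Pros1 at 1.13 times. Elmo1, the adaptor that binds Dock1 and the GTPase RhoG, lies on chromosome 13 from 20090596 to 20608353 (plus strand). It had 129 and 123 CPM in R213G replicates 1 and 2, against 131 and 132 CPM in WT replicates 1 and 2. Both R213G values lay below both WT values, as they did for 15.2% of all genes tested, by a log2 fold change of -0.06 ± 0.12 (95% interval -0.33 to 0.21). The sums of recruited monocyte-derived cell markers (7 of 7 in the table, led by Fn1) did not overlap either. They were 11221 to 12536 CPM in R213G and 13107 to 15195 CPM in WT. Fn1 made up most of each sum, at 9657 to 10662 CPM in R213G and 11239 to 13434 CPM in WT. The separation was thus that of Fn1 and was not shown for the other markers of the list. The part of this difference in the Elmo1 values was not tested. The antisense gene Gm32036 shares 403 exonic bases with Elmo1, or 3.20% of the Elmo1 exons, and was not analysed here. Dock1, the Rac exchange factor, lies on chromosome 7 from 134670654 to 135173639 (plus strand). It had 86.5 and 104 CPM in R213G replicates 1 and 2, against 76.5 and 102 CPM in WT replicates 1 and 2. Replicate 1 was the lower library in both genotypes. The log2 fold change of 0.09 ± 0.17 (95% interval -0.29 to 0.48) was -0.10 without WT replicate 1 and -0.05 without R213G replicate 2.

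**Figure D2:**
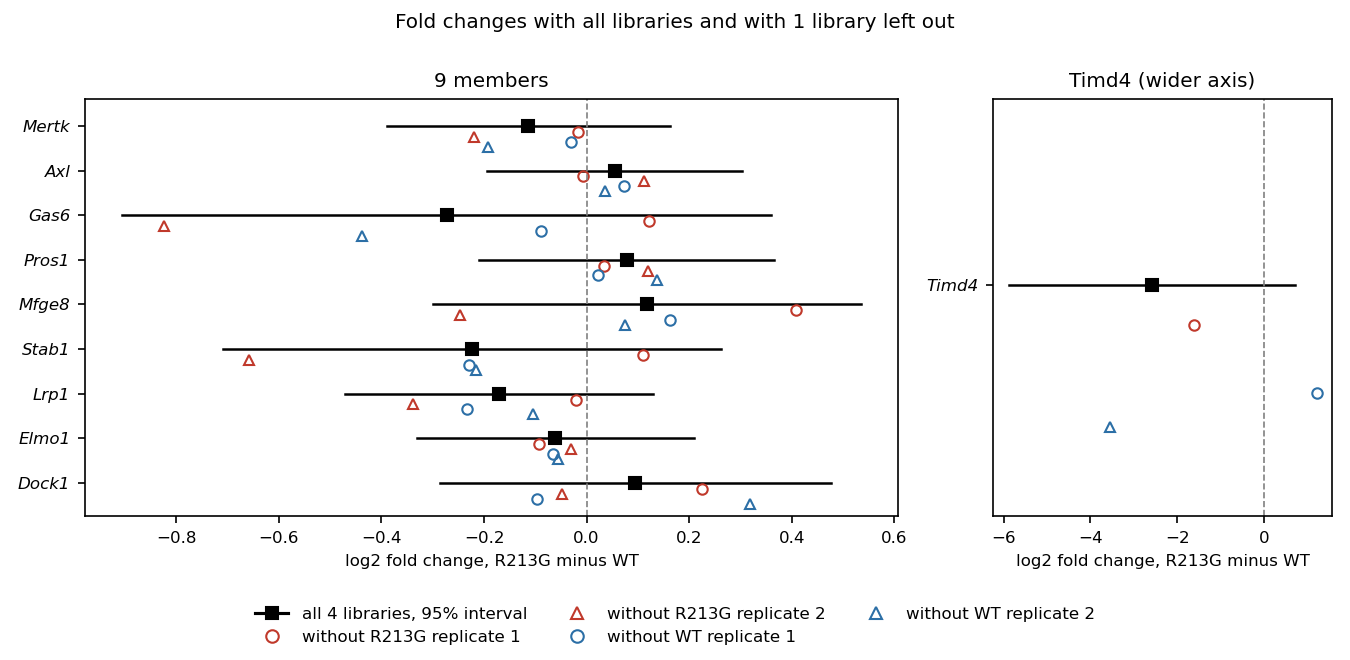
Log2 fold changes, R213G minus WT, of 9 members (left) and of Timd4 on a wider axis (right). Black squares and lines are the value and 95% interval with all 4 libraries, and open symbols are the values with 1 library left out (Timd4 without R213G replicate 2 is not drawn, since the R213G library left had 0 counts). All 10 intervals cross 0, and the widest spread among the 9 is that of Gas6, from -0.82 to 0.12.

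Without R213G replicate 2, 4 of 10 members (Gas6, Stab1, Lrp1 and Timd4) had an unadjusted p under 0.05, all lower in R213G, against 13.5% of all genes in that fit. In it Gas6 stood at -0.82 (adjusted p = 0.286) and Stab1 at -0.66 (adjusted p = 0.240), and 0 members passed (edgeR). Those values set R213G replicate 1 alone against WT. The spread in that fit came from the WT libraries and from moderation across genes, and the lone R213G library was assumed to vary like them, while the R213G libraries of Gas6 and Stab1 lay 0.94 and 0.76 apart on the log2 scale. Without WT replicate 1, 0 members were under that p, against 0.491% of all genes, and without WT replicate 2, 1 member (Timd4) was, against 1.44%. Without R213G replicate 1, 1 member (Mfge8) was under that p, against 1.48% of all genes, and Gas6 and Stab1 stood at 0.12 and 0.11.

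Per kilobase of exon, which allows levels to be set side by side between genes, Axl was the highest member, at 344 and 316 CPM per kilobase in R213G replicates 1 and 2, against 322 and 314 in WT replicates 1 and 2. Lrp1 followed, with 161 to 212 CPM per kilobase over the 4 libraries, and its range did not reach that of Axl. Stab1 (58.3 to 99.0), Mertk (65.1 to 79.7) and Mfge8 (46.4 to 72.9) came next, and neighbours in that order overlapped. Gas6 (18.9 to 37.4) and Pros1 (24.3 to 27.6) overlapped with each other and lay below Mfge8. Elmo1 (9.81 to 10.5) and Dock1 (8.20 to 11.2) overlapped and lay below Pros1. Timd4, at 0 to 1.50 CPM per kilobase, lay below all others.

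**Figure D3:**
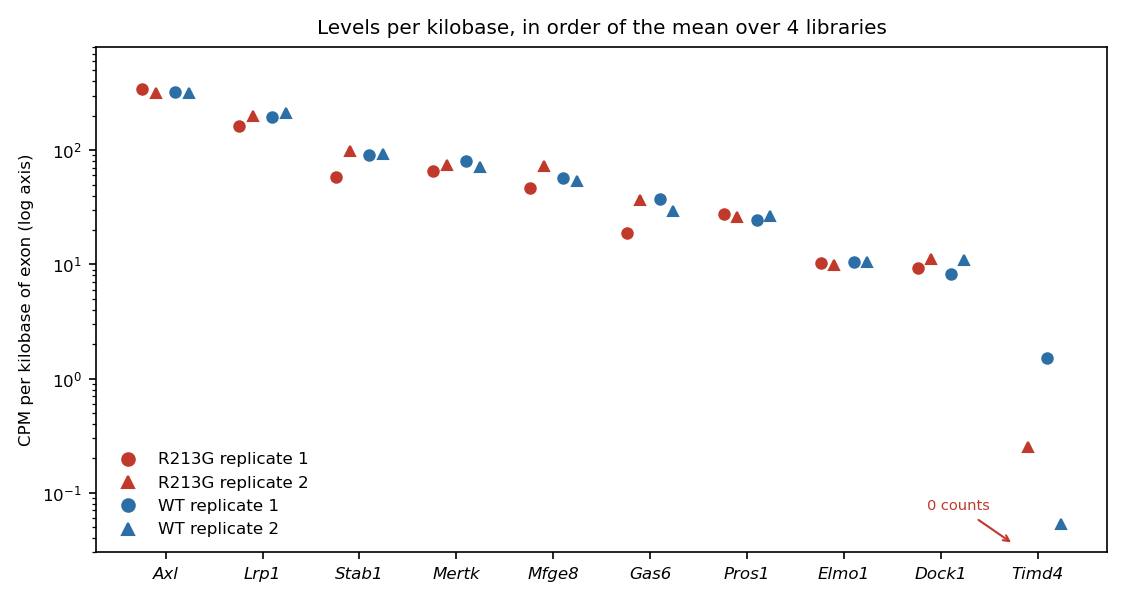
Level of each member in CPM per kilobase of annotated exon (log axis) in the 4 libraries, with R213G in red left of WT in blue, ordered by the mean. Axl is highest at 314 to 344 and Timd4 lowest at 0 to 1.50, with R213G replicate 1 at 0 counts shown by an arrow.

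The order depended on the length used for some genes. Per kilobase of coding sequence, Elmo1 averaged 59.2 ± 1.81 CPM over the 4 libraries and lay above Pros1 (52.6 ± 2.71) and Gas6 (38.4 ± 10.7), and Mfge8 (194 ± 38.0) lay above Stab1 (114 ± 24.4) and overlapped Lrp1. Elmo1 has 12580 exonic bases in the annotation but a coding length of 2181. Axl stayed highest and Timd4 lowest by both lengths. The counts are per gene and do not separate its transcripts.

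Other genes of apoptotic cell uptake were read from 7 lists of the pathway. Over the lists, 128 of 142 genes were tested, 0 rose and 0 fell (edgeR, adjusted p under 0.05), and 0 had an unadjusted p under 0.05, against 2.22% of all genes. Of these 128, the fold change was above 0 for 55 and the median was -0.03, and the libraries did not overlap for 25, against 28.9% of all genes tested.

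Of 20 other uptake receptors tested, 9 were positive, with a median log2 fold change of -0.05. The most abundant were the integrin subunit Itgb5, a partner of Mfge8, with 629.6 and 795 CPM in R213G replicates 1 and 2, against 793 and 679 CPM in WT replicates 1 and 2, followed by the lipid receptor Trem2 (log2 fold change -0.10 ± 0.14, and 0.07 without R213G replicate 1). The scavenger receptor Marco had the smallest p of that list, with 7.94 and 23.6 CPM in R213G replicates 1 and 2, against 7.38 and 9.33 CPM in WT replicates 1 and 2 (0.92 ± 0.48). Its value rested on R213G replicate 2, the sole library above 10 CPM, and was -0.08 without it. The lectin-like receptor Cd93 stood at -0.22 ± 0.15.

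Of 11 other bridging molecules tested, 3 were positive, with a median of -0.03. The complement subunits C1qa and C1qb, which coat dying cells, led the list with 2200 and 2903 CPM and 2188 and 2492 CPM in R213G replicates 1 and 2, against 2642 and 2547 CPM and 2432 and 2342 CPM in WT replicates 1 and 2. Their log2 fold changes were -0.02 ± 0.14 and -0.03 ± 0.12. Thrombospondin Thbs1, which bridges dying cells to Cd36 and the αv integrins, had 687 and 765 CPM in R213G replicates 1 and 2, against 1039.8 and 772 CPM in WT replicates 1 and 2. It had the smallest p of the list (-0.32 ± 0.15, unadjusted p = 0.0589, edgeR), and the WT libraries lay farther apart than WT replicate 2 lay from either R213G library. The phosphatidylserine binder Anxa5 stood at 0.13 ± 0.11.

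Of 25 other engulfment signalling genes tested, 10 were positive, with a median of -0.02. Tyrobp, the adaptor of Trem2, and the GTPase Cdc42 were the most abundant (-0.02 ± 0.11 and 0.12 ± 0.11). The regulatory subunit of phosphoinositide 3-kinase Pik3r1 stood at -0.24 ± 0.14 and the adaptor Crk at -0.22 ± 0.16 (-0.03 without R213G replicate 1). Of 17 genes of find-me and do-not-eat-me signals, which draw phagocytes to dying cells or hold back uptake, 9 were positive, with a median of 0.0028. The Cd47 receptor Sirpa had 1425 and 1644 CPM in R213G replicates 1 and 2, against 1447 and 1593 CPM in WT replicates 1 and 2 (0.01 ± 0.12). The inhibitory receptor Lilrb4a stood at -0.07 ± 0.15, Cd24a at 0.23 ± 0.16 and Pecam1 at -1.30 ± 0.71. Pecam1 was low, with 24 and 50 counts in R213G replicates 1 and 2, against 74 and 105 counts in WT replicates 1 and 2.

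Of 8 genes that shed or mature TAM receptors and ligands, 5 were positive, with a median of 0.06. The proprotein convertase Furin and the sheddase Adam10 were the most abundant (0.12 ± 0.12 and 0.04 ± 0.11), and Vkorc1l1, a vitamin K reductase of the carboxylation cycle, stood at -0.20 ± 0.18. Of 21 nuclear receptors and genes induced after uptake, 7 were positive, with a median of -0.04. Apoe, a target of the liver X receptors, had 10384 and 10136 CPM in R213G replicates 1 and 2, against 14940.0 and 9410.0 CPM in WT replicates 1 and 2 (-0.25 ± 0.19). The mitochondrial carrier Ucp2 stood at 0.01 ± 0.12 and the nuclear receptor Pparg at 0.40 ± 0.20. The growth factor Vegfa, at -1.97 ± 0.95, had 0 counts in R213G replicate 1 and stood at -0.99 without it. Of 26 genes of corpse digestion and LC3-associated phagocytosis, 12 were positive, with a median of -0.03. The protease Ctsd had 7625 and 11619 CPM in R213G replicates 1 and 2, against 11370.0 and 9813 CPM in WT replicates 1 and 2 (-0.14 ± 0.19). R213G replicate 1 was the lowest library, and the value was 0.13 without it. The membrane protein Lamp1 stood at -0.10 ± 0.13 (0.04 without R213G replicate 1), Map1lc3a at -0.42 ± 0.28 and the lipid kinase Pik3c3 at -0.24 ± 0.18.

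**Figure D4:**
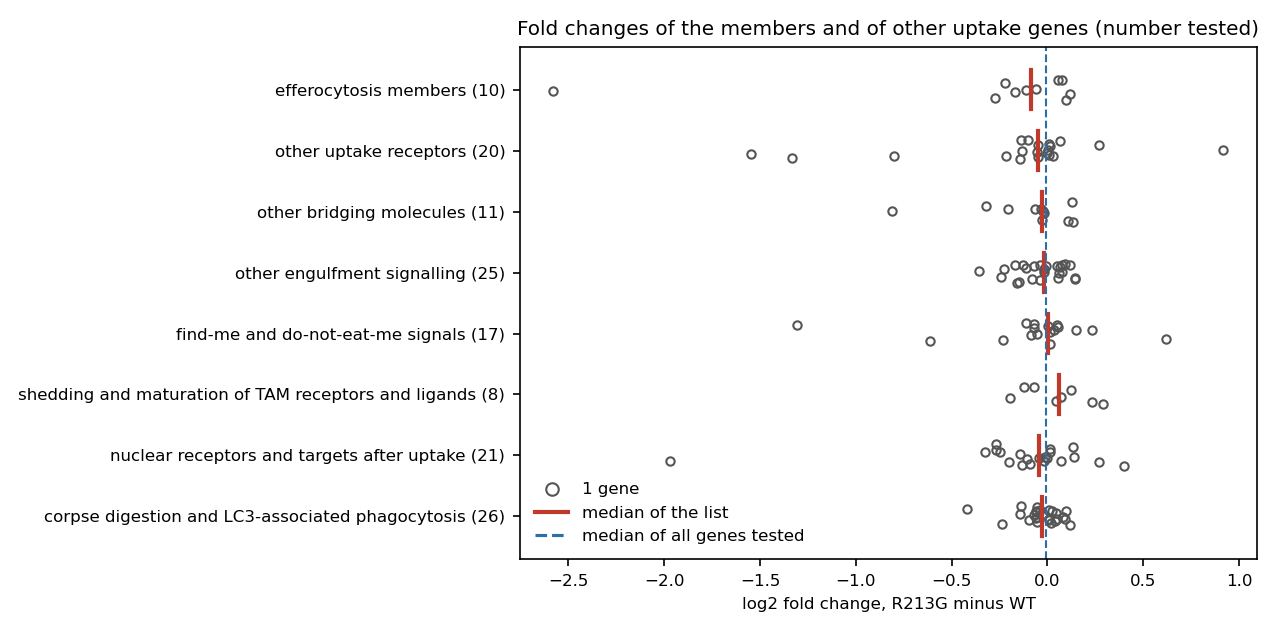
Log2 fold changes, R213G minus WT, of the 10 members and of the tested genes of 7 other uptake lists (number tested in brackets), with 1 circle per gene, a red bar at each list's median and a dashed line at the median of all genes tested. The medians lie between -0.09 and 0.06, and the lowest circle of the members is Timd4 at -2.58.

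Markers of other cell types gave the levels below. Resident alveolar macrophage markers (9 of 9 in the table, led by Itgax) summed to 1103 to 1187 CPM in R213G and 1099 to 1434 CPM in WT. Itgax made up most of each sum. It had 834 and 912 CPM in R213G replicates 1 and 2, against 913 and 859 CPM in WT replicates 1 and 2. The sum was highest in WT replicate 2, but Itgax was not, so that excess came from other markers of the list. Neutrophil markers (2 of 6 in the table, led by S100a8) summed to 12.2 to 20.6 CPM in R213G and 11.1 to 13.2 CPM in WT. Alveolar epithelial markers (6 of 6, led by Hopx) summed to 62.5 to 110 CPM in R213G and to 66.0 CPM in both WT libraries. Airway epithelial markers (4 of 4, led by Tppp3) summed to 102 to 112 CPM in R213G and 91.2 to 117 CPM in WT. Nearly all of each sum was Tppp3, at 101 to 110 CPM in R213G and 89.8 to 116 CPM in WT. The other markers of that list were near 0. T and NK cell markers (3 of 5, led by Cd3e) reached at most 3.02 CPM in R213G and 1.66 CPM in WT. B cell markers (1 of 3, Ms4a1) were at 0 in both R213G libraries and at most 1.30 CPM in WT. Fibroblast and mural markers (2 of 6, led by Acta2) summed to 3.22 to 6.50 CPM in R213G and 3.39 to 4.02 CPM in WT. That sum was nearly all Acta2, at 3.22 and 6.47 CPM in R213G replicates 1 and 2. It was lowest in R213G replicate 1 and highest in R213G replicate 2, as Mfge8 was at 218 and 342 CPM. The endothelial sum and that of interstitial or tissue-resident macrophage markers had the same lowest and highest library. Most of the former was Vwf and most of the latter was C1qa. R213G replicate 1 was the lowest library for 36.5% of all genes tested. The share of genes with this lowest and this highest library was not counted. The part of any of these cell types in the Mfge8 values was not tested. No listed marker in the table was at 0 in all 4 libraries, and the others of these lists were not analysed here.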

How the data were processed

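The values are raw, unnormalized read counts by gene symbol as the authors deposited them, with a column for each library. Reads were handled with STAR 2.5.1b, Subread 1.4.4 and featureCounts on GRCm38, per the submitters' processing notes. Not given in the sources used here are the annotation release, the strand setting and how multi-mapped reads were treated. Each column name is the description of 1 sample in the labels. All pairs of libraries differed by more than sampling noise (smallest chi-square per degree of freedom 17.5).

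Genotypes were compared with edgeR 4.0.16 by its quasi-likelihood test (newer form, robust, R 4.3.3) with TMM scaling and filterByExpr by group, fitted over 13575 genes with 2 residual degrees of freedom and Benjamini-Hochberg adjustment. The SE is the size of the log2 fold change over the square root of F, and intervals are 95%. An SD is over 2 libraries. Alternatives were DESeq2 1.42.0, limma 3.58.1 voom, the legacy form, other scalings and filters, a replicate block and leaving out each library. The fit was tested on simulated data. Positions, exon and coding lengths came from GENCODE vM21 (GRCm38), matched for all 10 members, and promoter bases from RefSeq (GRCm38.p6). The floor for a count of 0 covers counting error only.

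The members and lists were chosen with earlier results of these data known. Named genes were the 10 members, Sod3, the 2 genes of smallest p and of highest mean CPM in each uptake list, and the highest marker of each cell type. Nt5dc2, Gm32036 and Tmem255b, which overlap members, were chosen afterwards.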

Additional observations from a re-analysis of the deposited data

How the results depend on the processing

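With 2 libraries per genotype, 1 library can set a direction. No member was called under any of the 12 alternatives, nor was any gene of the other uptake lists. Over all genes the count called was 0, against 1 with DESeq2 and 0 to 2 with 1 library left out. The count at an unadjusted p under 0.05 was 302, against 201 with limma voom, 150 with a mean of at least 5 CPM, 1960 without R213G replicate 2 and 71 without WT replicate 1. The sign of a member's log2 fold change turned in 7 of 119 alternative values, all with 1 library left out. With each library left out in turn, the value ran from -0.0065 (without R213G replicate 1) to 0.11 for Axl, from -0.82 (without R213G replicate 2) to 0.12 (without R213G replicate 1) for Gas6 and from -0.66 to 0.11 for Stab1, likewise. For Mfge8 it ran from -0.25 (without R213G replicate 2) to 0.41 (without R213G replicate 1), and for Dock1 from -0.10 (without WT replicate 1), with -0.05 without R213G replicate 2, to 0.32 (without WT replicate 2). For Timd4 it ran from -8.82, a fitted value that depends on the prior count since the R213G library left had 0 counts, to 1.22 without WT replicate 1. The cause was not tested. Timd4 did not reach a mean of 5 CPM and has no value under that filter. The labels do not say that replicate numbers pair the libraries, and the same-numbered deviations had a correlation of 0.09 across genes. With the replicate block 0 genes and 0 members were called. The number of neighbours in the order of levels that did not overlap was 5 per kilobase of exon, 7 per kilobase of coding sequence and 5 by the longest transcript.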
